A study of Homo sapiens with 60 samples.

Results

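A549, an established human lung carcinoma line, was exposed for 24 h to a water extract of Yijin-tang, a traditional multi-herb formula, and the libraries at the medium dose of 100 µg/mL were compared with those at the low dose of 20 µg/mL. Members were chosen by their labels alone: 3 libraries at each of the 2 doses, all in library set 8, so 6 of the 60 libraries of the series. The series profiled mRNA of A549 cells under vehicle or under one of several herbal extracts, each at up to 3 doses 5-fold apart, and the comparison asks which genes already differ at 100 µg/mL. Beside these 6 libraries, 3 Yijin-tang libraries at 500 µg/mL from the same set and 3 vehicle libraries from set C1 entered the fit. The sample labels give the vehicle as 0.1% DMSO and the series' design text as 2%, and the DMSO share of the extract wells is not stated in the sources used here. Because vehicle and extract lie in different sets, set and treatment cannot be told apart in any comparison with vehicle, whereas both Yijin-tang doses share a set. Nothing in the labels shows that replicates came from different cultures, and p-values therefore reflect library-to-library spread that could be technical only.

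The gene groups followed here respond to small molecules and stress in epithelial cells. The aryl hydrocarbon receptor (AHR) is a ligand-activated transcription factor. It binds many plant-derived compounds, pairs with ARNT and induces the xenobiotic-metabolising enzymes CYP1A1 and CYP1B1 together with its own repressors AHRR and TIPARP. NR4A1, NR4A2 and NR4A3 are orphan nuclear receptors transcribed as immediate early genes, for example after cAMP or growth factor signals. NF-kB drives chemokines such as CXCL1 and CXCL8 in lung epithelium, and SREBP2 drives the enzymes of cholesterol synthesis when sterols are low.

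Levels are library-scaled counts (CPM, with TMM factors), and fold changes are log2 values from edgeR with their standard error (SE). A gene is called where its Benjamini-Hochberg adjusted p in edgeR's quasi-likelihood test is below 0.05 over all 16372 genes tested. The libraries held 21.908 to 27.774 M (mega) counts at 20 µg/mL and 22.167 to 28.313 M at 100 µg/mL, within the series' range of 18.003 to 33.832 M. At this depth the median SE of the log2 difference was 0.0478 for the 9517 genes with a mean of at least 10 CPM. Transcript length slopes of the 12 libraries ran from -0.0073 to 0.0144, so none stood apart in that measure. Of 18 lung epithelial and mucin markers, 11 reached 1 CPM, keratins and mucins among them. SFTPA1 was at 0, and the other surfactant genes listed, SFTPB and SFTPC, did not reach that level, nor did NKX2-1, the lung lineage factor. Summed leukocyte marker levels at 20 and 100 µg/mL were 14.01 to 17.56 and 14.45 to 16.85 CPM (3 of 10 at 1 CPM or more, CD3D and MS4A1 at 0). LYZ, 1 of the 10, had means of 0.0692 and 0.788 CPM, with 2.33 CPM in its highest library. Neural markers summed to 242.4 to 248.7 and 242.6 to 250.7 CPM (7 of 10), of which TUBB3 had means of 144 and 148 CPM. The groups did not overlap for fibroblast markers (65.79 to 68.84 against 70.56 to 71.29 CPM, 4 of 10 at 1 CPM or more, FAP at 0), hepatocyte markers (4.370 to 4.647 against 4.055 to 4.191 CPM, 1 of 7, APOA2 and F9 at 0) or endothelial markers (0.3994 to 0.4284 against 0.2253 to 0.3895 CPM, 0 of 7, KDR at 0). The part of these marker differences in the results was not tested.

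The step from 20 to 100 µg/mL was small across the transcriptome, and 2 genes were called. CYP1B1, an AHR-induced monooxygenase of steroids and aromatic hydrocarbons, rose by 23.5%, and NR4A1, an orphan nuclear receptor, fell to a level 20.5% lower; the percentages compare group means. In bulk RNA, a change in the number of cells that express a gene and a change in its RNA per cell cannot be told apart. These 2 genes are 0.0122% of those tested, with 0.00611% in each direction. Unadjusted p-values below 0.05 were found for 791 genes, 4.83% of those tested. Without any difference between the doses, a share of about 0.05 would lie below that threshold. All 3 libraries at 100 µg/mL lay above all 3 at 20 µg/mL for 4.59% of genes and below them for 5.14%. For 3 against 3 libraries without any difference, such separation in either direction has a probability of 0.1. Uncalled genes named below by their rank of p had to have groups without overlap. For them the lack of overlap was fixed by the choice and adds no evidence. Of the tested genes, 8180 were higher and 8191 lower at 100 µg/mL, and the median absolute log2 difference was 0.0538. Among 13801 genes with a mean of at least 1 CPM, 126 differed by 1.5-fold or more, while CYP1B1 and NR4A1 differed by less than that.

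**Figure D1:**
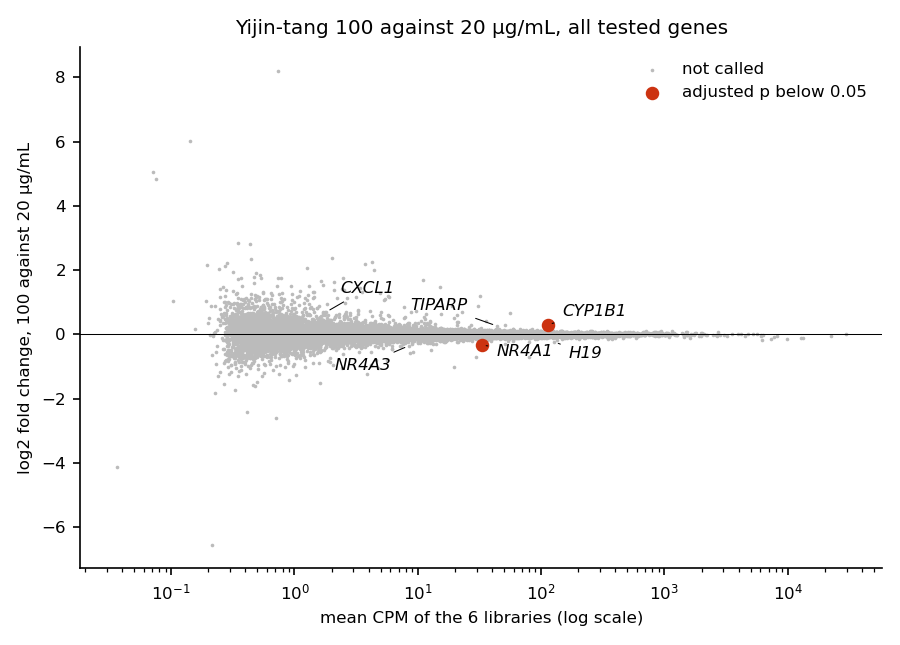
Log2 fold change of Yijin-tang 100 against 20 µg/mL (vertical axis) against the mean CPM of the 6 libraries (horizontal axis, log scale), 1 point for each of 16372 tested genes. The 2 called genes, CYP1B1 and NR4A1, are red and lie at 0.30 and -0.33; the 6 genes beyond 4 on the log2 scale all had a mean below 1 CPM and were not called.

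CYP1B1 (ENSG00000138061) lies on chromosome 2 from 38066973 to 38109902 of GRCh38, on the minus strand. Its level was 99.8, 101 and 106 CPM in the libraries at 20 µg/mL and 121, 121 and 138 CPM at 100 µg/mL. The 2 groups did not overlap, and replicate 3 was the highest of each. The log2 difference was 0.30 ± 0.0435 (SE, n = 3 against 3), with a 95% interval of 0.21 to 0.39 and an edgeR adjusted p of 0.00369. At 500 µg/mL the libraries held 167, 180 and 177 CPM, above every library at 100 µg/mL, and that step of 0.47 ± 0.0423 was called as well (edgeR adjusted p = 5.11e-07). Vehicle libraries held 97.0, 93.7 and 94.5 CPM. CYP1B1 at 100 µg/mL exceeded vehicle by 0.41 (edgeR adjusted p = 2.85e-06), while at 20 µg/mL the difference of 0.11 was not called (edgeR adjusted p = 0.152). The gene body overlaps RMDN2 (3.38 CPM) and CYP1B1-AS1 (0.384 CPM) on the opposite strand. Both are far below CYP1B1, although no source used here states the strand setting of the counting.

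The call for CYP1B1 depended on single libraries. It was lost without replicate 1 at 20 µg/mL (log2 difference 0.29, edgeR adjusted p = 0.0563) and without replicate 2 at 20 µg/mL (0.29, edgeR adjusted p = 0.154). The difference was 0.24 without replicate 3 at 100 µg/mL, the highest library, and stayed called there (edgeR adjusted p = 0.0147).

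**Figure D2:**
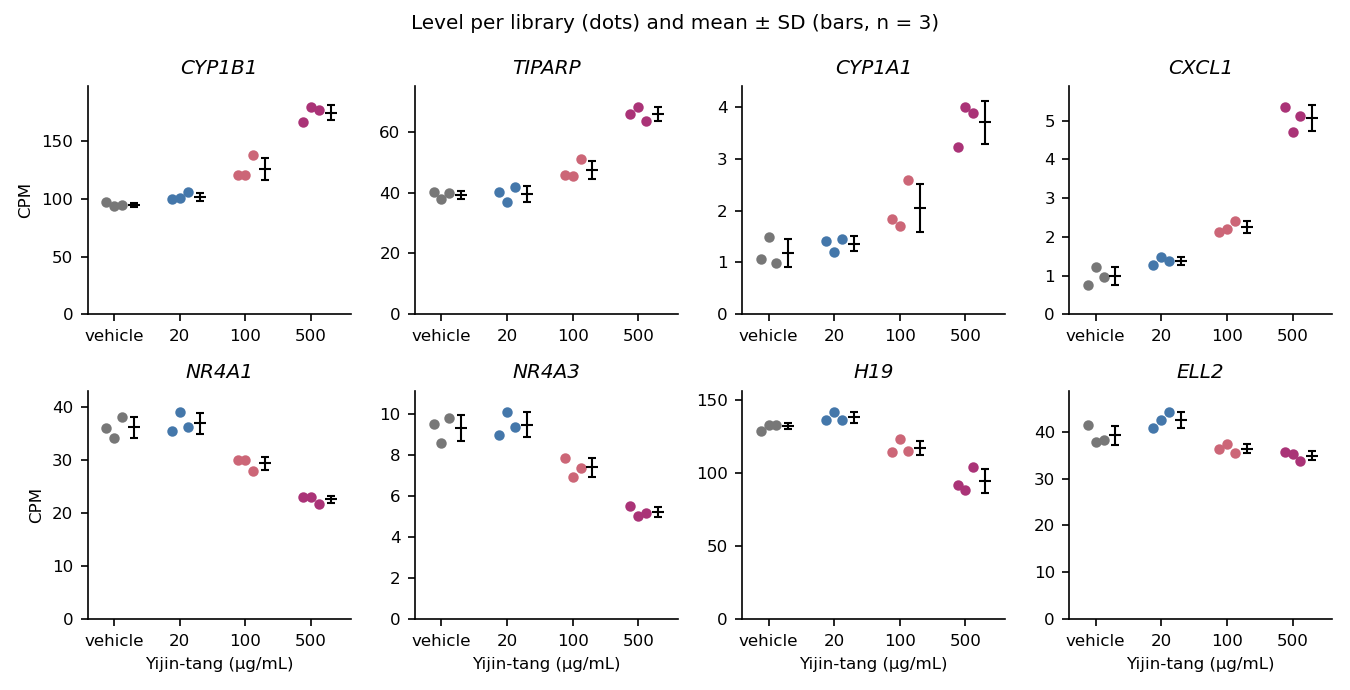
CPM (vertical axes, from 0) of 8 genes in the 3 libraries (dots) of vehicle and of Yijin-tang at 20, 100 and 500 µg/mL (horizontal axes); bars give the mean ± SD. CYP1B1, TIPARP and CXCL1 at 100 µg/mL lie between the other 2 doses, as do NR4A1, NR4A3 and H19 in the opposite direction.

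The other AHR targets gave no further call. Of 12 listed genes, 8 were tested at this dose step. CYP1B1 rose and 0 fell, beside 0.00611% of all genes in each direction, and the median log2 difference was 0.033 beside 0.000 over all genes.
TIPARP, the ADP-ribosyltransferase that represses AHR, lies on chromosome 3 from 156673235 to 156706770. It measured 40.1, 36.9 and 41.9 CPM at 20 µg/mL and 45.8, 45.6 and 51.1 CPM at 100 µg/mL. The groups did not overlap, and the log2 difference of 0.26 ± 0.0510 (95% interval 0.16 to 0.37) missed the threshold with an edgeR adjusted p of 0.0910. TIPARP then reached 66.0, 68.3 and 63.7 CPM at 500 µg/mL, a called step of 0.48 (edgeR adjusted p = 5.11e-07).

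CYP1A1, the classical AHR-induced monooxygenase, was scarce, with 1.42, 1.2 and 1.46 CPM at 20 µg/mL and 1.84, 1.71 and 2.58 CPM at 100 µg/mL. Every library at 100 µg/mL was above those at 20 µg/mL, but the interval of the log2 difference was wide (0.60 ± 0.207, 95% interval 0.17 to 1.02, edgeR adjusted p = 0.904). At 500 µg/mL CYP1A1 held 3.22, 4.00 and 3.87 CPM, called against 100 µg/mL at 0.85 (edgeR adjusted p = 0.0171); that call was kept in 9 of 15 alternative settings and lost without replicate 1 or 2 at 100 µg/mL or replicate 2 or 3 at 500 µg/mL (edgeR adjusted p of 0.0881 to 0.129). CYP1B1, TIPARP and CYP1A1 are thus the 3 of 8 tested targets whose groups did not overlap upwards, beside 4.59% of all genes. The gene lists were chosen with earlier results of these data known, so such shares describe them and are no independent test. The remaining 5 targets overlapped between the doses. The interval of the difference was -0.06 to 0.06 for NQO1, a quinone reductase, and -0.05 to 0.08 for SLC7A5, an amino acid transporter. It was -0.20 to 0.10 for ALDH3A1, an aldehyde dehydrogenase, and -0.16 to 0.26 for AHRR, the AHR repressor, whose locus overlaps PDCD6 (74.4 CPM) on the same strand. For UGT1A6, a glucuronosyltransferase that shares its last exons with the other UGT1A genes, it was -0.61 to 0.48 and its count is uncertain.

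The promoters of TIPARP and CYP1A1 were read from RefSeq (GRCh38.p14), 250 bases upstream of each annotated start. They show where the letters GCGTG lie, the core of the AHR-ARNT binding element. The AHR targets that overlapped between the doses are not shown, so the matches were not compared with theirs. Capitals mark GCGTG or its reverse complement CACGC. TIPARP at its first start (chr3:156674340-156674589, plus strand) held 2 matches, beginning 208 and 142 bases upstream, and the windows of its other 2 annotated starts held 0 and are not shown. CYP1A1 (chr15:74725529-74725778, minus strand) held 1, beginning 57 bases upstream. Over all 35093 promoters of this length, 32.2% hold the motif, so a match is a description and not a binding site. CYP1B1 has no entry in the table.
TIPARP: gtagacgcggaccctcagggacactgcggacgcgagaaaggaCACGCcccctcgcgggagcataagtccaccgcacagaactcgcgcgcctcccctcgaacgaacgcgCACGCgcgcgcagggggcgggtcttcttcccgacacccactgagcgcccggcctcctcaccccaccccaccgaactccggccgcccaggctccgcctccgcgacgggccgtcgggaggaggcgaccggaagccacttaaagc
CYP1A1: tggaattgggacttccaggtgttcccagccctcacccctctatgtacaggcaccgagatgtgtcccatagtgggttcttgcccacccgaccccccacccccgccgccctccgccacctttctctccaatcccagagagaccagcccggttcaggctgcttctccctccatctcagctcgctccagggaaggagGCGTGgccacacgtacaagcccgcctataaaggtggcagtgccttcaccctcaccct

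NR4A1 (ENSG00000123358) lies on chromosome 12 from 52022832 to 52059507, on the plus strand. It measured 35.6, 39.2 and 36.2 CPM at 20 µg/mL and 30.1, 30.1 and 27.9 CPM at 100 µg/mL. All libraries at 100 µg/mL lay below all at 20 µg/mL, with replicate 2 the highest at 20 µg/mL and replicate 3 the lowest at 100 µg/mL. NR4A1 fell by 0.33 ± 0.0521 on the log2 scale (n = 3 against 3, 95% interval -0.44 to -0.23, edgeR adjusted p = 0.00369). It reached 23.0, 23.0 and 21.7 CPM at 500 µg/mL, where it fell by a further 0.38 (edgeR adjusted p = 1.77e-04). Vehicle libraries held 36.1, 34.2 and 38.1 CPM, overlapping those at 20 µg/mL; the difference of 0.04 between them was not called (edgeR adjusted p = 0.742). The call at 100 µg/mL was lost without replicate 2 at 20 µg/mL (-0.29, edgeR adjusted p = 0.154) and without replicate 3 at 100 µg/mL (-0.30, edgeR adjusted p = 0.0686). With replicate 2 at 20 µg/mL left out, 0 genes in all were called.

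NR4A3, a closely related receptor on chromosome 9 (99821855 to 99866891), measured 8.95, 10.1 and 9.34 CPM at 20 µg/mL and 7.83, 6.94 and 7.37 CPM at 100 µg/mL. The groups did not overlap, and the difference of -0.36 ± 0.0885 (95% interval -0.54 to -0.18) was of the size seen for NR4A1, but it was not called (edgeR adjusted p = 0.426). At 500 µg/mL it held 5.48, 5.00 and 5.16 CPM and was called against 100 µg/mL (-0.50, edgeR adjusted p = 0.00633), a call lost without replicate 1 at 100 µg/mL (edgeR adjusted p = 0.0534) and without replicate 2 at 500 µg/mL (edgeR adjusted p = 0.0541). NR4A2, the third receptor, had means of 5.46 and 4.88 CPM at the 2 doses and an interval of -0.43 to 0.09. Over the 23 tested immediate early genes, 0 rose and 1 fell, beside 0.00611% of all genes in each direction, and the median was -0.002 beside 0.000 over all genes. Groups did not overlap downwards for 4 of the 23, NR4A1, NR4A3, KLF4 and KLF10, beside 5.14% of all genes. FOS, a subunit of AP-1, had an interval of -0.49 to 0.00, JUNB one of -0.12 to 0.06 and EGR1 one of -0.48 to 0.53.

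The upstream windows of NR4A1 and NR4A3 were searched for TGACG, the half-site bound by CREB, and for its reverse complement CGTCA, shown in capitals. NR4A3 (chr9:99821635-99821884, plus strand) held 4 matches, beginning 109, 91, 83 and 25 bases upstream of its start. For NR4A1 the windows of 2 annotated starts were read, at chr12:52022582-52022831 and chr12:52037465-52037714 on the plus strand, and these letters are in neither window. The rest of the locus, which ends at 52059507, was not searched, so a half-site elsewhere is not excluded. Of all promoters of this length, 21.2% hold the motif.
NR4A3: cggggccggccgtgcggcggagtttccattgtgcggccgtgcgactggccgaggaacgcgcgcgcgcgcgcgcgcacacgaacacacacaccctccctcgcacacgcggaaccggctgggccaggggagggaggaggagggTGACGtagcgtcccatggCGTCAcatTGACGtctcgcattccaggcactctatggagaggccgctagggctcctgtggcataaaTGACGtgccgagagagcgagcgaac
NR4A1, first start: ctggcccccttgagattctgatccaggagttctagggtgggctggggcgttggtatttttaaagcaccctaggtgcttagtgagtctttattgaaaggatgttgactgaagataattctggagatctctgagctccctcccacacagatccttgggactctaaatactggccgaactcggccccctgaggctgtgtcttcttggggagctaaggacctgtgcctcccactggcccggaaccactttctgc
NR4A1, second start: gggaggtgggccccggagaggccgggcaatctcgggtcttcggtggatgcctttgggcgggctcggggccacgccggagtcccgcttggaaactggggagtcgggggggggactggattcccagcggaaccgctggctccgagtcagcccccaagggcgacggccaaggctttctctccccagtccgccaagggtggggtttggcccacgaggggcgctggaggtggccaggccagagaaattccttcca

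Among genes that were lower but not called, H19, an imprinted long non-coding RNA on chromosome 11 (1995176 to 2001470), came nearest to the threshold. Its libraries held 136, 142 and 136 CPM at 20 µg/mL and 114, 123 and 115 CPM at 100 µg/mL, without overlap. The difference was -0.24 ± 0.0444 (95% interval -0.33 to -0.14, edgeR adjusted p = 0.0954), and DESeq2 called it with an adjusted p of 0.00402. At 500 µg/mL H19 held 91.5, 88.1 and 104 CPM, called against 100 µg/mL at -0.31 (edgeR adjusted p = 4.03e-04).

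ELL2, an elongation factor of RNA polymerase II, measured 40.7, 42.4 and 44.3 CPM at 20 µg/mL and 36.4, 37.4 and 35.5 CPM at 100 µg/mL. The groups did not overlap, which the choice of uncalled genes required (-0.22 ± 0.0469, edgeR adjusted p = 0.158). Unlike NR4A1 and H19, ELL2 held 35.6, 35.3 and 33.8 CPM at 500 µg/mL, a step of -0.06 from 100 µg/mL that was not called (edgeR adjusted p = 0.837). FGG, the fibrinogen gamma chain, measured 132, 146 and 149 CPM at 20 µg/mL and 131, 125 and 122 CPM at 100 µg/mL (-0.18 ± 0.0394, edgeR adjusted p = 0.252). Its lowest library at the low dose and its highest at the medium dose differed by about 1 CPM. GPX2, a glutathione peroxidase, was lower by a similar amount (-0.14 ± 0.0367, edgeR adjusted p = 0.614), and PIN4, a prolyl isomerase, had -0.25 ± 0.0632 (edgeR adjusted p = 0.454). The PIN4 count is uncertain, since the gene overlaps RPS4X (954 CPM) and ERCC6L (44.4 CPM) on the opposite strand.

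Several of these genes, GPCPD1, JUP, TMED1 and DDIT3 among them, were called at 20 µg/mL against vehicle and not at 100 µg/mL against vehicle. GPCPD1, a glycerophosphocholine phosphodiesterase, measured 54.8, 55.7 and 62.6 CPM at 20 µg/mL, 48.4, 48.4 and 51.7 CPM at 100 µg/mL and 45.6, 47.3 and 45.9 CPM in vehicle. It was called at 20 µg/mL against vehicle (0.32, edgeR adjusted p = 6.20e-05) but not at 100 µg/mL against vehicle (0.10, edgeR adjusted p = 0.268), nor between the doses (-0.22 ± 0.0482, edgeR adjusted p = 0.220). All its libraries at 100 µg/mL still lay above all vehicle libraries. JUP, the junction protein plakoglobin, was also called at 20 µg/mL against vehicle (0.17, edgeR adjusted p = 4.64e-04), with 367, 370 and 352 CPM at 20 µg/mL, 341, 335 and 328 CPM at 100 µg/mL and 316, 325 and 329 CPM in vehicle. Its difference between the doses was -0.12 ± 0.0299 (edgeR adjusted p = 0.526). TMED1, a protein of the early secretory pathway, was lower at 20 µg/mL than in vehicle. Its libraries held 9.09, 8.93 and 8.70 CPM at 20 µg/mL, 12, 11 and 10.7 CPM at 100 µg/mL and 12, 13 and 12.1 CPM in vehicle, with 0.34 ± 0.0790 between the doses (edgeR adjusted p = 0.307) and a called -0.48 at 20 µg/mL against vehicle (edgeR adjusted p = 1.41e-04). TMED1 overlaps DNM2 (99.8 CPM) on the opposite strand, so its count is uncertain too. DDIT3, the stress transcription factor CHOP, measured 6.53, 5.66 and 5.10 CPM at 20 µg/mL, 7.76, 7.30 and 6.73 CPM at 100 µg/mL and 6.98, 7.26 and 7.55 CPM in vehicle. DDIT3 was called lower at 20 µg/mL than in vehicle (-0.34, edgeR adjusted p = 0.0309), a call lost without any 1 of the 3 vehicle libraries or replicate 2 or 3 at 20 µg/mL (edgeR adjusted p of 0.0529 to 0.180), and its libraries at 100 µg/mL overlapped those of vehicle. Its locus is shared with MARS1 (255 CPM) on the opposite strand. These comparisons share libraries, and vehicle lies in another set. The genes were chosen by p between the doses, which uses the same libraries at 20 µg/mL, so the pattern is no independent evidence.

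FAM162A, a mitochondrial protein linked to hypoxia, measured 9.45, 11.2 and 11.0 CPM at 20 µg/mL and 14.2, 12.8 and 12.9 CPM at 100 µg/mL. The groups did not overlap (0.33 ± 0.0776, edgeR adjusted p = 0.307), and at 500 µg/mL the level was 12.7, 13.2 and 12.8 CPM. PTK7, a catalytically inactive receptor of Wnt signalling, measured 6.67, 7.99 and 7.67 CPM at 20 µg/mL and 9.77, 9.60 and 8.97 CPM at 100 µg/mL (0.34 ± 0.0875, edgeR adjusted p = 0.526). Neither gene was higher again at 500 µg/mL: the next step was -0.05 for FAM162A and -0.13 for PTK7, and neither was called. FAM162A overlaps WDR5B (8.79 CPM) on the opposite strand. A further 6 genes among the first by p rest on uncertain counts, since they overlap a more abundant gene or are readthrough loci. ATF7-NPFF (0.69) overlaps ATF7, AL160408.2 (0.59) IRF2BP2, AF111169.1 (1.18) VASH1, AC106886.4 (0.80) RNF40, AL591806.3 (-0.45) F11R and STAG3L5P-PVRIG2P-PILRB (-0.20) PILRB, and none was called at this step.

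The NF-kB list gave no call between 20 and 100 µg/mL. Of 26 listed genes 20 were tested; 16 were higher and 4 lower, with a median log2 difference of 0.074 beside 0.000 over all genes. Groups did not overlap upwards for 4 of the 20 (CXCL1, CXCL3, TNIP1 and IL32; 4.59% of all genes) and downwards for 1 (NFKBIZ; 5.14%). CXCL1, a neutrophil chemokine on chromosome 4 (73869393 to 73871242), had the largest difference of the list. It measured 1.28, 1.49 and 1.37 CPM at 20 µg/mL and 2.12, 2.21 and 2.41 CPM at 100 µg/mL. The groups did not overlap, and the difference was 0.69 ± 0.181 (95% interval 0.32 to 1.07), but the edgeR adjusted p was 0.554. At 500 µg/mL CXCL1 held 5.36, 4.70 and 5.11 CPM, called against 100 µg/mL at 1.17 (edgeR adjusted p = 3.09e-05). At 100 µg/mL it was also called against vehicle (0.761, 1.22 and 0.953 CPM; 1.18, edgeR adjusted p = 1.46e-04). CXCL1, CXCL2 and CXCL3 are close paralogs, so reads may be shared among them.

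CXCL5, a related chemokine with a higher count, measured 59.3, 60.9 and 62.1 CPM at 20 µg/mL and 67.1, 61.4 and 64.1 CPM at 100 µg/mL. The groups overlapped, and the interval reached at most 0.16. At 500 µg/mL its libraries held 109, 113 and 112 CPM, far above both other doses (0.79 against 100 µg/mL, edgeR adjusted p = 8.14e-15). CXCL8, interleukin 8, measured 1.46, 1.05 and 1.63 CPM at 20 µg/mL, 1.66, 1.94 and 1.14 CPM at 100 µg/mL and 4.15, 4.52 and 5.26 CPM at 500 µg/mL. The first 2 doses overlapped, with an interval of -0.29 to 0.70, and the step to 500 µg/mL was called at 1.55 (edgeR adjusted p = 6.85e-05). IL32, a cytokine, had 2.79, 2.98 and 2.61 CPM at 20 µg/mL and 3.93, 3.20 and 3.73 CPM at 100 µg/mL, without overlap (0.38, 95% interval 0.11 to 0.65, edgeR adjusted p = 0.904). C3, the central complement component, had an interval of 0.02 to 0.23 and CCL2, a monocyte chemokine, one of -0.13 to 0.37. NFKBIA and NFKB1, which encode the pathway's inhibitor and a subunit, each had an interval of -0.10 to 0.10.

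Over the next step, from 100 to 500 µg/mL, 11 of the 20 NF-kB genes and 3 of the 8 AHR targets rose and none of either list fell, beside 0.360% and 0.293% of all genes called higher and lower (0.654%, or 107 genes, in all). The list medians there were 0.437 and 0.255. With the replicate number as a block 10 of the NF-kB genes rose, without BIRC3 (edgeR adjusted p = 0.0642), and the same 3 AHR targets. BIRC3, TNFAIP3, CFB and LCN2 also lost the call when certain single libraries were left out (edgeR adjusted p of 0.0636 to 0.248). The 2 steps share the libraries at 100 µg/mL, and the values stand side by side. Both lists were chosen with earlier results known, so these shares are descriptive.

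**Figure D3:**
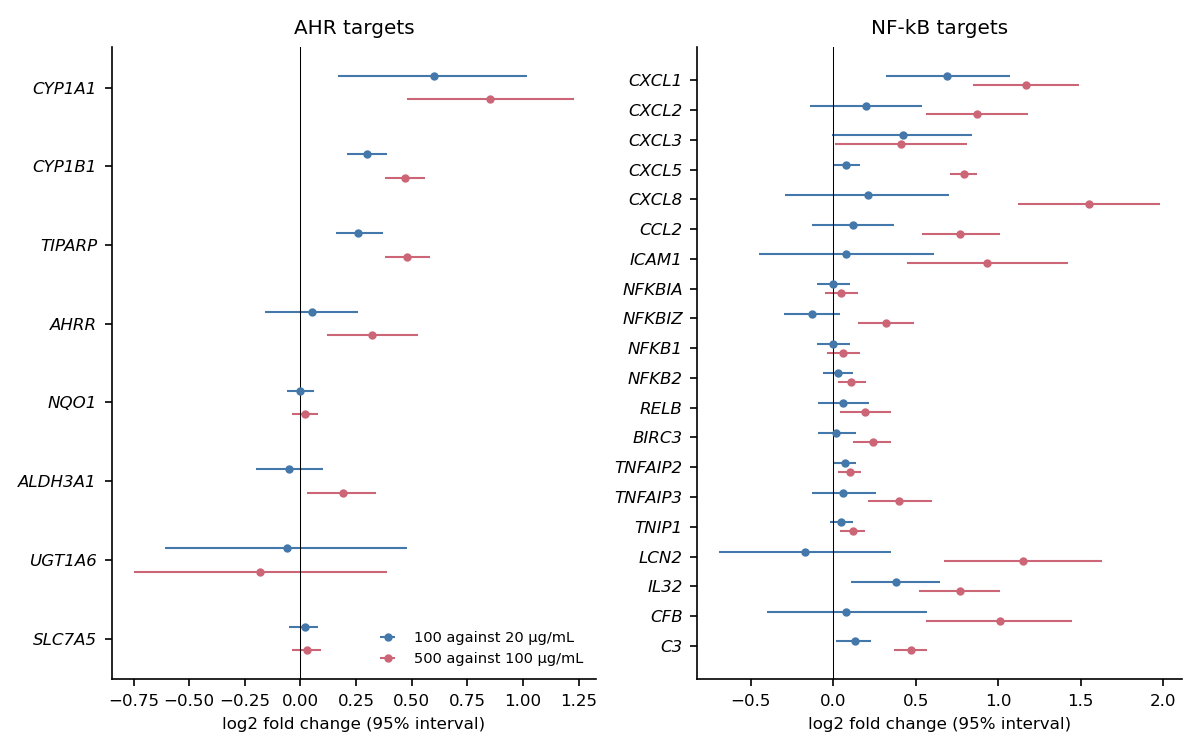
Log2 fold change with 95% interval (horizontal axes) for each tested AHR target (left) and NF-kB target (right), for 100 against 20 µg/mL (blue) and 500 against 100 µg/mL (red); the 2 comparisons share the libraries at 100 µg/mL. For CXCL5 the blue interval ends at 0.16 and the red point lies at 0.79.

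Whether the 2 steps, each a 5-fold increase in dose, differed was tested directly as the difference between them. The test called 2 genes (0.0122%), CXCL5 and FADS2, a fatty acid desaturase, both with the larger rise between 100 and 500 µg/mL. For CXCL5 that step exceeded the step from 20 to 100 µg/mL by 0.71 ± 0.0699 (95% interval 0.57 to 0.86, edgeR adjusted p = 4.88e-07), and the call was kept in 16 of 17 alternative settings. For FADS2 the call was kept in 6 of 17, and leaving out any of 7 of the 9 Yijin-tang libraries, all but replicate 1 at 20 and at 500 µg/mL, ended it (edgeR adjusted p of 0.0603 to 0.107). The steps were not called different for CYP1B1 (0.16, 95% interval 0.01 to 0.32, edgeR adjusted p = 0.988), TIPARP (0.21, 0.04 to 0.39, edgeR adjusted p = 0.988), NR4A1 (-0.05, -0.24 to 0.15, edgeR adjusted p = 0.994) or CXCL1 (0.47 ± 0.294, edgeR adjusted p = 0.988). For CXCL8 the interval of 0.52 to 2.16 lay above 0, but the edgeR adjusted p was 0.905.

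Genes of lipid synthesis gave no call between 20 and 100 µg/mL. Of 25 tested genes of cholesterol synthesis and uptake, 0 were called, 17 were higher and 8 lower, and the median was 0.011. HMGCS1, the synthase at the head of the mevalonate pathway, had an interval of -0.03 to 0.09. The interval for INSIG1, a sterol-regulated brake on SREBP, was -0.04 to 0.19, and that for SQLE, squalene epoxidase, -0.04 to 0.10. From 100 to 500 µg/mL, 11 of the 25 rose, with a median of 0.188, beside 0.360% of all genes called higher. With the replicate number as a block 8 of the 25 were called there, without MSMO1, MVD and SREBF2 (edgeR adjusted p of 0.0616 to 0.0627). MVD and SREBF2 also lost the call whichever single library at 100 or 500 µg/mL was left out (edgeR adjusted p of 0.0534 to 0.260). SQLE, MSMO1 and DHCR7 lost it for several of these libraries. Of 14 tested genes of fatty acid synthesis, 0 were called at 100 µg/mL against 20 µg/mL (median 0.004), and SCD, stearoyl-CoA desaturase, had an interval of -0.02 to 0.12.

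**Figure D4:**
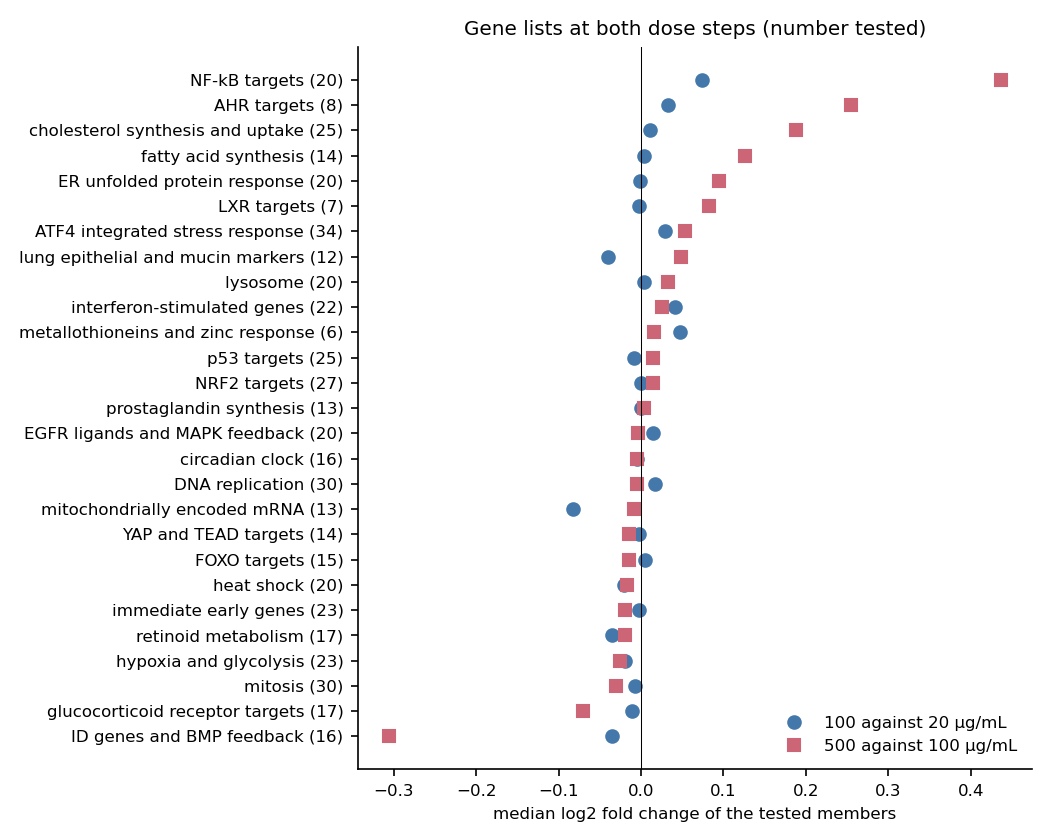
Median log2 fold change (horizontal axis) of the tested members of each of 27 gene lists, for 100 against 20 µg/mL (blue circles) and 500 against 100 µg/mL (red squares), with the number of tested members in brackets. Blue medians lie between -0.083 and 0.074, and red medians between -0.306 and 0.437.

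Across all 27 lists, 486 different genes were tested. At the step from 20 to 100 µg/mL 2 of them were called, beside 0.0122% of all genes, so 25 lists held no called gene. These 2, CYP1B1 and NR4A1, are the only genes called at that step. At the next step 49 of the 486 were called, beside 0.654% of all genes, and 43 with the replicate number as a block. Since the lists were chosen with earlier results of these data known, the shares at both steps are descriptive. Of the 34 tested ATF4 targets, which include the amino acid synthesis genes of the integrated stress response, 27 were higher at 100 µg/mL with a median of 0.029, and ASNS, asparagine synthetase, had an interval of 0.04 to 0.20. The ID genes encode inhibitors of differentiation and are induced by BMP signals. ID4 had means of 15.4 and 12.5 CPM (interval -0.47 to -0.12) and ID2 of 117 and 107 CPM (-0.21 to -0.04), both without overlap, while ID1 overlapped with an interval of -0.09 to 0.08. Groups did not overlap downwards for 3 of the 16 tested members (ID2, ID4 and SMAD6; 5.14% of all genes) and upwards for 1, the ligand gene BMP2 (4.59%), with means of 0.509 and 0.773 CPM. None of the 16 was called, and 4 fell at the next step, beside 0.293% of all genes called lower there (the same 4 with the block). Cell cycle lists stayed near 0, with medians of 0.017 for 30 DNA replication genes and -0.007 for 30 mitosis genes. The medians were -0.021 for heat shock genes and -0.008 for p53 targets.

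Mitochondrially encoded mRNA had the lowest list median, -0.083, with 12 of 13 genes lower and 0 called. Its share of all counts was 9.659 to 9.85% at 20 µg/mL and 9.01 to 9.539% at 100 µg/mL, without overlap. The highest and lowest shares of the 12 libraries, 10.449% and 8.058%, both lay at 500 µg/mL. The interval was -0.41 to 0.06 for MT-CYB, which encodes cytochrome b, and -0.22 to 0.13 for MT-CO1, a subunit of cytochrome c oxidase.

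Against vehicle both doses gave far more calls than against each other. At 100 µg/mL, 999 genes were called (6.10%), 444 higher (2.71%) and 555 lower (3.39%), and at 20 µg/mL 1173 genes (7.16%), 536 higher (3.27%) and 637 lower (3.89%). These counts share the vehicle libraries, and set and treatment cannot be told apart in them. NFKBIA, for example, was called at both doses against vehicle, 0.29 in each case, while its interval between the doses spanned -0.10 to 0.10. CYP1B1, TIPARP, CXCL1, NR4A1, NR4A3 and H19 were called at 100 µg/mL against vehicle and not at 20 µg/mL against vehicle. The difference between those results is the dose step itself, which was called for CYP1B1 and NR4A1 of the 6. Other named genes with this pattern were CYP1A1, CXCL5, C3, BIRC3, AL160408.2 and AL591806.3, none called at the dose step. The intervals at 20 µg/mL against vehicle were 0.02 to 0.20 for CYP1B1 and 0.08 to 0.89 for CXCL1, although neither was called. For TIPARP the differences at 100 and 20 µg/mL against vehicle were 0.27 (edgeR adjusted p = 8.89e-04) and 0.01 (0.951). For H19 they were -0.17 (0.0234) and 0.07 (0.414). For NR4A3 they were -0.32 (0.0203) and 0.04 (0.869). The calls at 100 µg/mL against vehicle were kept in 6 of 13 alternative settings for H19 and for NR4A3. H19 lost it without any 1 of the 3 vehicle libraries or replicate 1 or 3 at 100 µg/mL (edgeR adjusted p of 0.0570 to 0.115), and NR4A3 without vehicle replicate 1 or 3 or replicate 2 or 3 at 100 µg/mL (edgeR adjusted p of 0.0622 to 0.117).

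Schisandrae Fructus and Zizyphi Semen, both ethanol extracts, were given at the same 2 doses in other library sets, and the size of the dose step was compared with that of Yijin-tang in one fit over 52 libraries. No gene was called as differing from either extract (0%; edgeR, 18228 genes). At unadjusted p below 0.05 there were 761 genes against Schisandrae Fructus and 608 against Zizyphi Semen, and DESeq2 called 0 in both. CYP1B1 measured 90.8, 92.9 and 93.1 CPM at 20 µg/mL and 102, 98.4 and 98.5 CPM at 100 µg/mL of Schisandrae Fructus. The step there was 0.11 ± 0.0704, and that of Yijin-tang exceeded it by 0.19 (95% interval -0.01 to 0.39). With Zizyphi Semen CYP1B1 measured 88.5, 79.3 and 80.3 CPM and then 93.8, 79.4 and 82.6 CPM. The groups overlapped, and the step of Yijin-tang exceeded that of 0.04 by 0.26 (95% interval 0.06 to 0.46, edgeR adjusted p = 1.000). In this fit, whose spread is shared over more groups, the CYP1B1 step of Yijin-tang itself was not called (edgeR adjusted p = 0.313), while that of NR4A1 was (edgeR adjusted p = 0.00278).

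NR4A1 was lower at the medium dose of all 3 extracts. It measured 41.9, 39.1 and 36.2 CPM at 20 µg/mL and 35, 32 and 34.9 CPM at 100 µg/mL of Schisandrae Fructus. With Zizyphi Semen it measured 40.3, 38.2 and 38.9 CPM and then 33.2, 32.6 and 32.0 CPM, again without overlap. The steps were -0.20 ± 0.0522 and -0.26 ± 0.0530, neither called over all genes (edgeR adjusted p = 0.906 and 0.171). The step of Yijin-tang differed from them by -0.13 (95% interval -0.28 to 0.02) and -0.07 (-0.22 to 0.08). H19 was also lower at 100 µg/mL of Schisandrae Fructus and of Zizyphi Semen (-0.13 and -0.10). So were FGG (-0.10 and -0.09), GPX2 (-0.16 and -0.08) and NR4A3 (-0.16 and -0.17), and none of these steps was called. ELL2 had -0.06 and 0.00, and GPCPD1 had 0.02 and -0.05. The CXCL1 level with Schisandrae Fructus was lower at the medium dose, from 1.27, 1.44 and 1.23 CPM to 0.688, 1.03 and 1.05 CPM. The difference between the 2 extracts' steps was 1.21 ± 0.287 (0.63 to 1.79), not called with an edgeR adjusted p of 0.857. With Zizyphi Semen CXCL1 measured 1.1 to 1.44 CPM at 20 µg/mL and 1.15, 1.55 and 1.80 CPM at 100 µg/mL. These groups overlapped (0.23 ± 0.205), and the step of Yijin-tang differed from that one by 0.47 (95% interval -0.10 to 1.03, edgeR adjusted p = 1.000). Soshiho-tang, a water extract in the same set 8, had CYP1B1 at 148 and 155 CPM at 20 µg/mL and 125 CPM in its 1 library at 100 µg/mL in this fit, and NR4A1 at 31.8 and 31.1 CPM and then 36.1 CPM. With 1 library on a side these values were not tested.

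**Figure D5:**
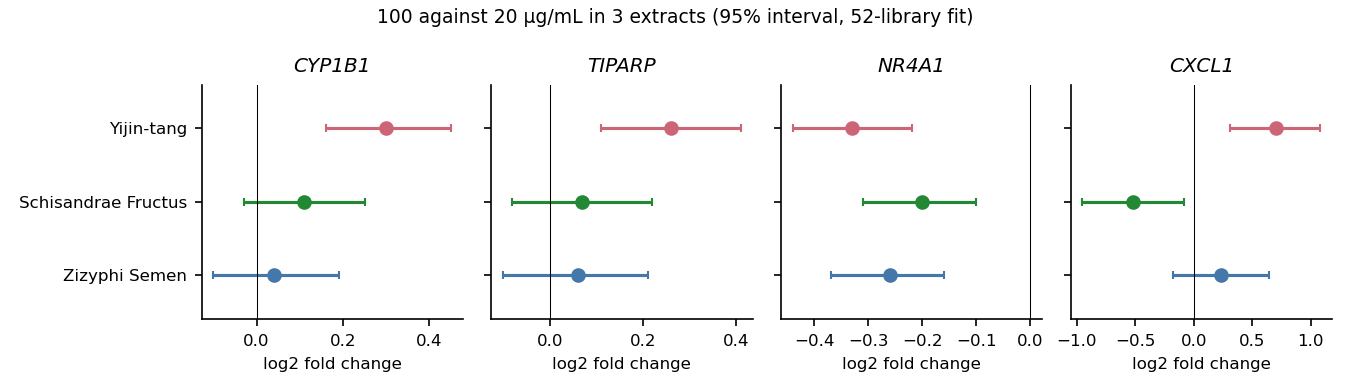
Log2 fold change of 100 against 20 µg/mL with 95% interval (horizontal axes) for 4 genes in 3 extracts (rows), from the fit over 52 libraries. The NR4A1 interval lies below 0 in each extract, and the CYP1B1 interval lies above 0 for Yijin-tang and includes 0 for the other 2.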

How the data were processed

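Messenger RNA of A549 cells was sequenced in 60 libraries as 100 bp read pairs. The authors deposited a table of expected counts, which need not be whole (10.485% of values were not). Per the submitters' processing notes, RSEM 1.3.3 and STAR 2.7.3a were used with hg38, after Trim Galore 0.6.5 and FastQC 0.11.9; no source used here gives the annotation release or the strand setting. Of 60675 gene IDs, 41209 had a symbol and 57055 lay in GENCODE 29, whose GRCh38 coordinates are printed.

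Expected counts were rounded. The 12 libraries of Yijin-tang and vehicle (18.955 to 33.832 M counts each) were fitted with edgeR 4.0.16 in R 4.3.3 (filterByExpr, TMM, robust quasi-likelihood test, Benjamini-Hochberg adjustment over all tested genes, calls below 0.05, intervals at 95%). The comparison between extracts used 52 libraries of 19 groups; 2 libraries of other extracts with length slopes of -0.2296 and -0.1759, against -0.0466 to 0.0173 in the rest, were left out. DESeq2 1.42.0 was an alternative, with others on scaling, filter, spread, replicate block and single libraries left out. The code was tested on simulated data. The test of the difference between dose steps was added after seeing the data.

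Named genes were the called ones and, with fewer than 5 calls in a direction, the first 10 of that direction by p with a mean of at least 1 CPM and no overlap between groups, plus called members of each list and the AHR and NF-kB members at 1 CPM or more. Members and lists were chosen with earlier results of these data known. FOS, JUNB, EGR1, NR4A2, FADS2 and the lipid, ASNS, ID and mitochondrial genes were named after their values were seen. Each library counted as 1 replicate. Replicate pairs differed by chi-square per degree of freedom of 2.194 to 7.905, which does not show that they came from different cultures. Same-numbered libraries at 20 and 100 µg/mL deviated with correlations of -0.123, -0.059 and -0.114 over 10079 genes, so the numbers were not taken to pair them. At 100 and 500 µg/mL the correlations were 0.264, 0.132 and 0.143, each above 0.1, so counts with the number as a block are given there. The fold changes, intervals and p-values printed for single genes at that step come from the fit without the block, except where the block is named. The block is shared by all 12 libraries, those at 20 µg/mL and of vehicle included.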

Additional observations from a re-analysis of the deposited data

How the results depend on the processing

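Between 20 and 100 µg/mL, where 2 genes were called, the count was 35 with no filter on low counts, of which 16 had a mean below 1 CPM, and 5 with DESeq2. It was 0 when all 54 replicated libraries shared the spread (336 genes at unadjusted p below 0.05) and 1 with 52 libraries. Leaving out single libraries gave 0 to 5. CYP1B1 was called in 10 of 15 alternatives (log2 0.24 to 0.34) and NR4A1 in 12 of 15 (-0.36 to -0.29); the exceptions were single libraries at 20 or 100 µg/mL, given with their values above, and the 54 libraries for both, and for CYP1B1 also the 52 libraries and the 6 libraries compared (edgeR adjusted p = 0.0621). The directions held in all 15. The cause was not tested.

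For 500 against 100 µg/mL (107 genes) the count was 185 with no filter, 12 with 54 libraries, 61 with only the 6 libraries compared and 54 to 86 with single libraries left out. Against vehicle, 100 µg/mL (999) gave 18 with 54 libraries, 526 with 52 libraries and 505 to 929 with single libraries left out. The 20 µg/mL dose (1173) gave 26, 659 and 623 to 793 in the same settings. For the difference between the dose steps (2) the counts were 51 with no filter, 6 with DESeq2, 1 with 54 libraries, 1 with 9 Yijin-tang libraries, 1 with these 9 and a block, and 1 to 5 with single libraries left out. Against the other extracts (0 and 0) the counts were 179 for Schisandrae Fructus and 95 for Zizyphi Semen with no filter, and 0 to 1 and 0 to 0 with single libraries left out.

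With the replicate number as a block, 2 genes were called between 20 and 100 µg/mL (CYP1B1, edgeR adjusted p = 8.98e-04, and NR4A1, 0.0128), 91 between 100 and 500 µg/mL, 933 and 1116 for 100 and 20 µg/mL against vehicle, 2 for the difference between steps and 0 against either extract. The alternatives with 9 libraries were chosen after seeing the data. Depth limits the scarce genes: the SE of the log2 difference was 0.0366 at the 10th and 0.351 at the 90th percentile of tested genes.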
